A study of Mus musculus with 6 samples.

Results

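The 9 genes described here encode the integrin subunits Itga2, Itga3, Itga5, Itga6, Itgav, Itgb1, Itgb4, Itgb5 and Itgb6, out of 18193 genes measured. They were taken by symbol, and 28 probe sets of the array carried one of these symbols and no other. Each gene is represented by the probe set with the highest mean over all arrays (the main probe set), and its other probe sets are given beside it. The RNA was that of a mouse pancreatic duct line, mPAC L20. The shAtoh8 group (3 arrays) had received an adenovirus with a hairpin that targets Atoh8, which encodes a transcription factor of the basic helix-loop-helix family. In the shControl group (3 arrays) the adenovirus carried a scrambled hairpin. All cells of both groups also received an adenovirus that expresses Neurog3, which switches pancreatic progenitors to the endocrine fate, so that no array shows cells without Neurog3 or without virus. Each virus was added at a multiplicity of infection of 40, followed by 44 to 46 h of culture. The 3 replicates of a group were separate experiments on 1 cell line.

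Integrins are cell surface receptors made of an alpha and a beta chain, which bind the extracellular matrix outside the cell and link it through talin and kindlin to actin inside. The pairing sets the ligand. Itgb1 joins Itga2 to bind collagen, Itga3 or Itga6 to bind laminin, and Itga5 to bind fibronectin. Itga6 with Itgb4 holds epithelial cells to laminin in hemidesmosomes. Itgav with Itgb5 or Itgb6 binds ligands with an RGD motif, and the Itgav-Itgb6 receptor, which epithelia make, is known for activating latent TGF-beta. In the pancreas, laminin and collagen receptors anchor duct and islet cells to their basement membrane.

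Atoh8 and Neurog3 belong to the basic helix-loop-helix family, whose members bind the E-box, CANNTG. The stretches of 250 bases before annotated starts are shown for Itgb6, the subunit with the most negative difference, and for its partner Itgav, which differed in the other direction. That of Itga5, the 1 subunit called when replicate numbers were used as a block, is shown as well. They are from RefSeq (GRCm38.p6), 5' to 3' on the gene's strand, in lower case with E-boxes in capitals. Itgb6 has a pair of annotated starts, and both are printed. The Itgav start does not lie at the gene's outer end, while that of Itga5 does.
Itgb6, start at the gene's outer end, chr2:60722604-60722853, minus strand: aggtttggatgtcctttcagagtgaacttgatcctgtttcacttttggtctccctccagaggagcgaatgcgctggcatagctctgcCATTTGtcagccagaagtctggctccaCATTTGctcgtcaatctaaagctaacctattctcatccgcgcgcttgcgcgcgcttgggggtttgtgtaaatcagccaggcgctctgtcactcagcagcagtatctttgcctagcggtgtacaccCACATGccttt
Itgb6, inner start, chr2:60673694-60673943, minus strand: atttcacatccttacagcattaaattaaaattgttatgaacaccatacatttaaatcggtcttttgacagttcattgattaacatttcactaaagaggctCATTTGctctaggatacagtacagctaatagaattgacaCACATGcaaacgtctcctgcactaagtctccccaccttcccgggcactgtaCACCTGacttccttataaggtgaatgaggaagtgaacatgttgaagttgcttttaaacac
Itgav, chr2:83724147-83724396, plus strand: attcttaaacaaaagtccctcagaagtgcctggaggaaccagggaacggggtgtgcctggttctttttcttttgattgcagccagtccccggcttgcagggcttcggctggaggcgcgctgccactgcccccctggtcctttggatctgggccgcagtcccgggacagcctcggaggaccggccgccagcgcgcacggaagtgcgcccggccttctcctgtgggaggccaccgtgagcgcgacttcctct
Itga5, chr15:103366792-103367041, minus strand: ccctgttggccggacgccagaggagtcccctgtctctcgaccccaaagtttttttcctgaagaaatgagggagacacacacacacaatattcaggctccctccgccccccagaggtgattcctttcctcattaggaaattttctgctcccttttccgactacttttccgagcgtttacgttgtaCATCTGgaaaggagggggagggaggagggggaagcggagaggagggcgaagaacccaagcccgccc
The outer Itgb6 window held 3 E-boxes, whose first bases lie 163, 136 and 11 bases before the start. The inner window held 3, at 150, 111 and 60 bases. The Itga5 window held 1, at 66 bases, and the Itgav window held 0. The motif reads the same on both strands, and overlapping matches were counted. Of the other subunits with a window, Itgb5 held 3, Itga3 held 1 in each of its windows, and Itga2 and Itgb1 held 0. Neither Itga3 window lies at the gene's outer end. At least 1 E-box occurs in 66.2% of the 32851 windows of this length in the table, so a match is a description of the sequence and no sign of binding.

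Median log2 signals per array ran from 5.49 to 5.56. The 3' actin probe set read above the 5' one, a difference that widens as RNA degrades, by 0.354 on shAtoh8 replicate 2, against 0.107 to 0.202 on the other arrays. The same difference for Gapdh was not wider there, at -0.0509, against -0.143 to -0.0495 on the other arrays. Markers of duct epithelium were present: 7 of the 8 listed were measured, and Krt8, Krt18 and Krt19 had mean log2 signals of 13.91, 13.72 and 13.40 in shAtoh8 and 13.85, 13.79 and 13.43 in shControl. Over all 7 the mean log2 signal per array was 11.35 to 11.46 in shAtoh8 and 11.55 to 11.64 in shControl, without overlap, and 6 of 7 were lower in shAtoh8. None of the 7 passed in limma (0, where 1.15% of all genes passed), though 2 had an unadjusted p under 0.05, where 17.5% of all genes had one. When replicate number was fitted as a block 1 of 7 was called lower, where 2.75% of all genes were. It was Epcam, an epithelial adhesion molecule, which read 7.72, 7.31 and 6.90 in shAtoh8 replicates 1, 2 and 3, against 8.11, 8.09 and 7.93 in shControl, a log2 difference of -0.73 ± 0.19 (SE; limma adjusted p = 0.145, and 0.0463 with the block). Its other probe set gave 0.048. The median log2 difference of the 7 duct markers was -0.074. Their signals summed on the linear scale overlapped, at 44713 to 47229 per array in shAtoh8 and 45445 to 48175 in shControl. The part of the lower mean log2 level of duct markers in the differences of the subunits was not tested. The mean log2 signal per array was 4.83 to 4.87 in shAtoh8 and 4.86 to 4.95 in shControl over 8 fibroblast markers, 5.32 to 5.45 and 5.34 to 5.43 over 6 leukocyte markers, 4.25 to 4.36 and 4.21 to 4.32 over 5 endothelial markers, and 4.50 to 4.55 and 4.43 to 4.57 over 3 acinar markers, all below the array medians. None of these non-duct markers passed the test (0 in limma, 1 at an unadjusted p under 0.05, 0 with the replicate block). Of all genes, 1.15%, 17.5% and 4.67% did so, and for so few markers these counts say little about cell types. Atoh8, the target of the hairpin, read 7.83, 7.90 and 7.37 in shAtoh8 replicates 1, 2 and 3, against 8.75, 8.29 and 7.52 in shControl, a log2 difference of -0.49 ± 0.30 (SE) that did not pass (limma adjusted p = 0.573, and 0.157 with the block). It was lower in shAtoh8 in all 3 replicate numbers, and the difference was -0.21 without shControl replicate 1 and -0.82 without shControl replicate 3. Neurog3, delivered to both groups and named after its values were seen, read 6.78, 6.06 and 5.33 in shAtoh8, against 7.45, 6.64 and 5.79 in shControl on its main probe set. Its log2 difference was -0.57 ± 0.48 (SE; limma adjusted p = 0.706, and 0.0330 with the block), and its other set gave 0.18 ± 0.17 (0.751, and 0.400 with the block).

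The comparison asks which integrin subunits differ between cells with the Atoh8 hairpin and cells with the scrambled one. On the main probe sets 7 of 9 subunits had a lower mean in shAtoh8 and 2, Itgav and Itga3, a higher one. None passed the test (0 of 9 at a limma adjusted p under 0.05 over all probe sets, 2 at an unadjusted p under 0.05, Itgav and Itgb6), where 1.15% of all 18193 genes passed (0.517% higher and 0.638% lower) and 17.5% had an unadjusted p under 0.05. With the replicate number as a block 1 subunit, Itga5, fell, where 4.67% of all genes passed (1.92% higher and 2.75% lower). The exception on the level of probe sets was Itgb6, whose second probe set passed in both fits. Of the 28 probe sets 1 passed without the block and 2 with it, where 0.802% and 3.42% of all probe sets did. The median log2 difference of the 9 subunits was -0.17, against 0.01 for all genes, and the median size of the difference without its sign was 0.31, against 0.11. Each main set of the 9 lay above the median signal of all probe sets (5.52), and the values for all genes were not matched for signal. For 8 of the 9 the difference was under 1.5-fold.

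**Figure D1:**
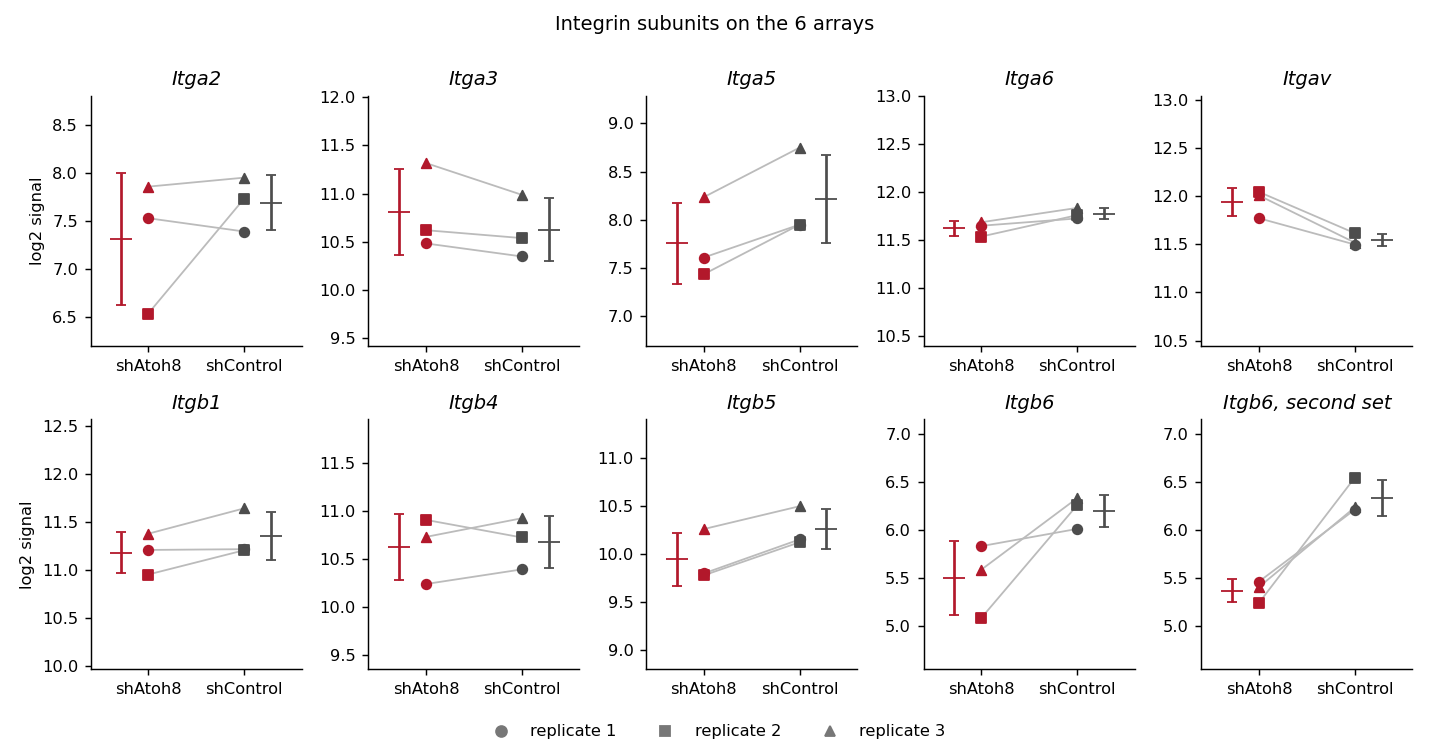
Log2 signal (vertical axis, each panel spanning the same range) of the main probe set of the 9 integrin subunits and of the second Itgb6 probe set, in shAtoh8 (red, left) and shControl (grey, right). Symbols are replicates 1 to 3, lines join arrays of the same replicate number, and bars are the mean ± SD (n = 3 each); on the second Itgb6 set all 3 shAtoh8 arrays lie below all 3 shControl arrays.

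Itgb6, the beta chain that pairs with Itgav alone, was the subunit with the largest difference. Its main probe set read 5.84, 5.09 and 5.59 (log2 signal) in shAtoh8 replicates 1, 2 and 3, against 6.01, 6.26 and 6.34 in shControl. All shAtoh8 arrays lay below all shControl arrays, and the replicate 2 array of shAtoh8 lay lowest. The means were 5.50 ± 0.38 in shAtoh8 and 6.20 ± 0.17 in shControl (SD, n = 3 each), a log2 difference of -0.70 ± 0.19 (SE). This is 1.62-fold lower and did not pass (limma adjusted p = 0.157, and 0.106 with the block). Its second probe set read 5.46, 5.24 and 5.40 in shAtoh8, against 6.21, 6.54 and 6.23 in shControl. There the arrays of a group lay close together and the groups were further apart. The means were 5.37 ± 0.11 and 6.33 ± 0.19 (SD, n = 3 each), and Itgb6 fell by 0.96 ± 0.12 (SE) on the log2 scale, 1.95-fold lower in shAtoh8 (limma adjusted p = 0.0282, and 0.0277 with the block). The 2 probe sets had nearly the same mean over all arrays, 5.85 each to 2 decimals, so the order that made the first one the main set rests on a gap smaller than the spread between replicates. The second set was singled out after its values were seen. The call did not survive the loss of any 1 array: the adjusted p was 0.0509 to 0.103 with each array left out in turn, while the difference stayed between -0.85 and -1.02. Both sets lie just above the median of all probe sets (5.52), so Itgb6 was dim on this array. In RNA from whole wells, fewer cells that express a gene and less of its RNA per cell cannot be told apart.

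Itgav, the alpha chain that pairs with Itgb6 and Itgb5, differed in the other direction. Its main probe set read 11.77, 12.05 and 12.01 in shAtoh8 replicates 1, 2 and 3, against 11.50, 11.62 and 11.52 in shControl. The groups did not overlap, with shAtoh8 above. The means were 11.94 ± 0.15 in shAtoh8 and 11.54 ± 0.06 in shControl (SD, n = 3 each), a log2 difference of 0.40 ± 0.10 (SE), or 1.32-fold, which did not pass (limma adjusted p = 0.126, and 0.0683 with the block). Without the block this was the smallest p of the 9 main sets, while with it that of Itga5 was smaller. The next brightest set read 0.24 ± 0.19 higher in shAtoh8 and the one after it 0.014 ± 0.18, both with groups that overlapped. On these sets the replicate 2 pair had the opposite sign (-0.15 and -0.42), which it did not have on the main set (0.43). The dimmest pair of sets, with means below the median of all probe sets, gave -0.06 and 0.12. As the mean of all 5 sets the difference was 0.14 (adjusted p = 0.503).

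Itgb5, the other beta chain that joins Itgav, binds vitronectin. Its main probe set read 9.80, 9.78 and 10.26 in shAtoh8, against 10.15, 10.12 and 10.50 in shControl. The groups overlapped, since replicate 3 was the highest array in both, but each shAtoh8 array lay below the shControl array of its own number. The mean was 9.95 ± 0.27 in shAtoh8 and 10.26 ± 0.21 in shControl (SD, n = 3 each), a log2 difference of -0.31 ± 0.16 (SE; limma adjusted p = 0.482, and 0.104 with the block). Its other 3 probe sets all had the same sign, from -0.34 to -0.16, and also lay lower in shAtoh8 in every replicate number. All 4 Itgb5 sets thus had the same sign in every pair, at a size that on the main set passed in none of the fits tried.

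**Figure D2:**
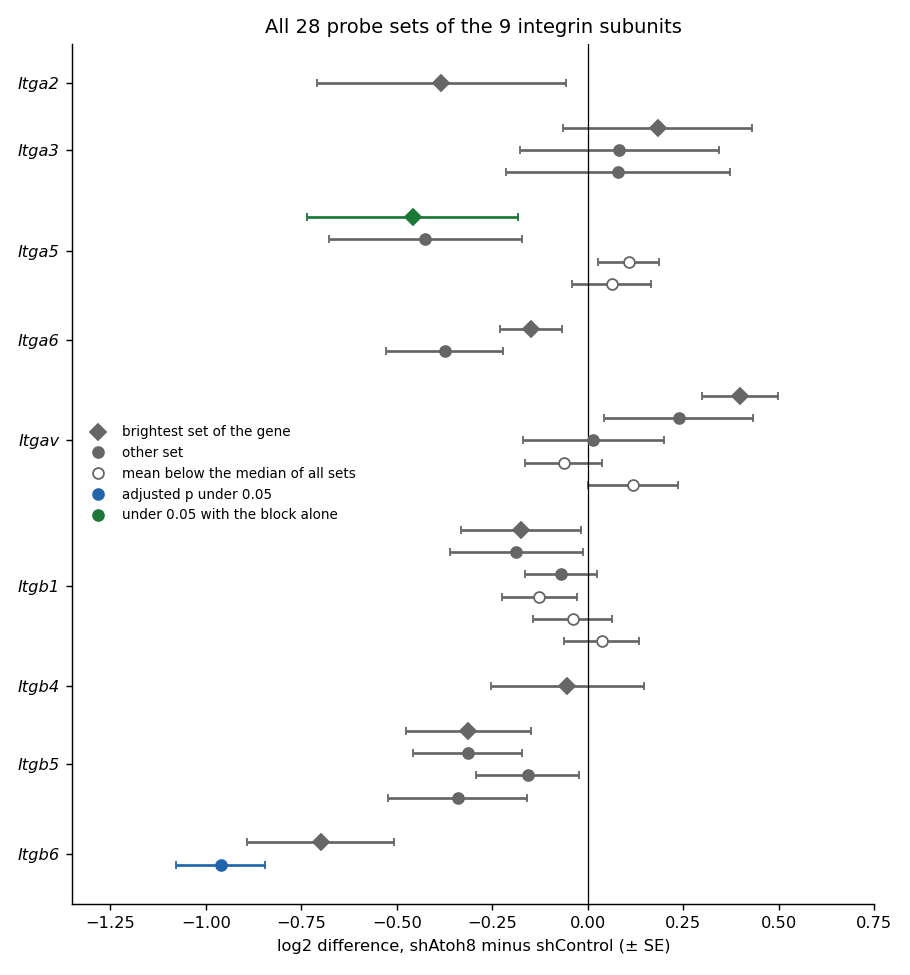
Log2 difference, shAtoh8 minus shControl, with its limma SE (horizontal axis) for each of the 28 probe sets, grouped by gene with the brightest set (diamond) on top of each group. Open symbols have a mean below the median of all probe sets; the second Itgb6 set (-0.96) is the one that passed without the block, and the main Itga5 set (-0.46) passed with the block alone.

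Itga5, the alpha chain of the fibronectin receptor, read 7.60, 7.43 and 8.23 on its main probe set in shAtoh8 replicates 1, 2 and 3, against 7.95, 7.95 and 8.75 in shControl. The level differed between replicate numbers by more than between groups, with replicate 3 high in both, and the groups overlapped. Within replicate numbers the difference was even, at -0.34, -0.52 and -0.52. The means were 7.76 ± 0.42 in shAtoh8 and 8.21 ± 0.46 in shControl (SD, n = 3 each), a log2 difference of -0.46 ± 0.28 (SE) or 1.37-fold, lower in shAtoh8 (limma adjusted p = 0.562 without the block and 0.0482 with it). Itga5 therefore fell in the fit that compares arrays of the same number, and did not pass in the one that does not. With both arrays of replicate 1, 2 or 3 left out, the block fit gave -0.52, -0.43 and -0.43 (adjusted p = 0.156, 0.0907 and 0.238). The second set gave -0.43 ± 0.25 with pairs of -0.10, -0.76 and -0.42 (adjusted p = 0.162 with the block), and the other 2 sets, both dim, gave 0.11 and 0.06.

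Itgb1, the beta chain shared by the collagen, laminin and fibronectin receptors, had no difference beyond the spread between replicates. Its main probe set read 11.21, 10.96 and 11.38 in shAtoh8, against 11.22, 11.21 and 11.65 in shControl, so that replicate 1 was nearly equal and the others were lower. The log2 difference was -0.17 ± 0.16 (SE; limma adjusted p = 0.734), with a 95% interval of -0.54 to 0.19. Of its other 5 probe sets 4 were lower and 1 higher, from -0.19 to 0.04, and none passed.

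Among the alpha chains that bind laminin, Itga6 differed little, with pairs of -0.08, -0.22 and -0.15 in replicates 1, 2 and 3. It read 11.65, 11.54 and 11.69 in shAtoh8, against 11.73, 11.76 and 11.84 in shControl, without overlap, and the log2 difference was -0.15 ± 0.08 (SE; limma adjusted p = 0.511), with a 95% interval of -0.34 to 0.04. Its second probe set gave -0.38 ± 0.15 (adjusted p = 0.333), where the replicate 2 pair stood apart at -0.79, against -0.15 and -0.18 in the other pairs. Itga3, which forms the other laminin receptor with Itgb1, read 10.48, 10.62 and 11.32 in shAtoh8, against 10.34, 10.54 and 10.99 in shControl. It was higher in each replicate number, by 0.14, 0.08 and 0.33, but replicate 3 lay above the rest in both groups and the log2 difference of 0.18 ± 0.25 (SE) did not pass (limma adjusted p = 0.844). Its other 2 sets gave 0.08 each, with the replicate 2 pair lower. Itgb4, the hemidesmosome chain that pairs with Itga6, read 10.24, 10.90 and 10.73 in shAtoh8, against 10.39, 10.72 and 10.92 in shControl. Its groups overlapped and its pairs had different signs, for a log2 difference of -0.05 ± 0.20 (SE; adjusted p = 0.952, 95% interval -0.52 to 0.42).

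Itga2, the alpha chain of the collagen receptor, read 7.53, 6.54 and 7.86 in shAtoh8, against 7.39, 7.74 and 7.95 in shControl. One array, shAtoh8 replicate 2, lay far below the other 5, and without it the groups were level. The log2 difference was -0.38 ± 0.33 (SE; limma adjusted p = 0.712) over all arrays and 0.0015 without that array. Itga2 has a single probe set, as has Itgb4.

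**Figure D3:**
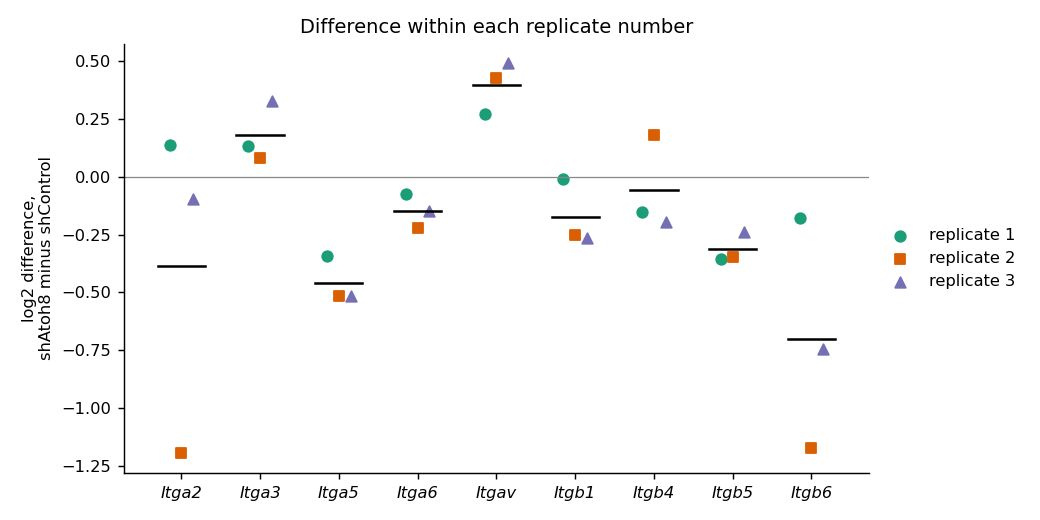
Log2 difference between the shAtoh8 and the shControl array of the same replicate number (vertical axis) for the main probe set of each integrin subunit. Points are the 3 replicate numbers and bars their mean; Itgav (0.27 to 0.49) and Itga3 (0.08 to 0.33) lie above 0 in all 3, while Itga2 and Itgb6 owe their lowest point (-1.20 and -1.18) to replicate 2.

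Within replicate numbers 7 of the 9 subunits differed in the same direction in all 3 pairs, 2 higher (Itga3 and Itgav) and 5 lower (Itga5, Itga6, Itgb1, Itgb5 and Itgb6) in shAtoh8. Of all genes, 45.5% did so, 24.0% higher and 21.5% lower. The groups did not overlap for 3 subunits, Itgav above and Itga6 and Itgb6 below, against 24.0% of all genes (12.6% above and 11.4% below). Single arrays were high or low for several subunits. Replicate 3 was the highest array in both groups for 6 of 9 (Itga2, Itga3, Itga5, Itga6, Itgb1 and Itgb5), against 15.8% of all genes, and shAtoh8 replicate 2 was the lowest of all 6 arrays for 6 of 9 (Itga2, Itga5, Itga6, Itgb1, Itgb5 and Itgb6), against 12.7%. A gene that is lower in shAtoh8 meets the second count more easily than one that is not, and the same array was the highest of all 6 for Itgav and the highest of its group for Itgb4. These counts were made after the values were seen. The same array had the wider actin gap given above, though not a wider Gapdh gap, and the part of this array in the lower means was not tested. With it left out the log2 difference was -0.49 for Itgb6, -0.90 for its second set, -0.30 for Itga5, -0.23 for Itgb5, -0.11 for Itga6 and -0.062 for Itgb1. Without shControl replicate 3 it was -0.63 for Itgb6, -1.01 for its second set, -0.19 for Itga5, -0.19 for Itgb5, -0.12 for Itga6 and -0.031 for Itgb1. Leaving out the lowest shAtoh8 array or the highest shControl array raises a difference by construction. Without shAtoh8 replicate 3 it was -0.74, -0.98, -0.70, -0.47, -0.18 and -0.27 in the same order. The block fit without both arrays of replicate 3 gave -0.68, -1.03, -0.43, -0.35, -0.15 and -0.13.

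The genes whose profile over the 6 arrays lay closest to that of Itgav were Arap2, Agpat4 and Pla2g6, with Euclidean distances of 0.115, 0.127 and 0.131 between log2 signals centred on each gene's mean. They read 0.34, 0.44 and 0.35 higher in shAtoh8. None of them passed without the block, and Agpat4 did with it (limma adjusted p = 0.0477), where 4.67% of all genes did. They were chosen for their likeness to Itgav on these arrays, so their direction follows from the choice. The 6 arrays also share a cell line and the same 3 experiments, so this likeness is a description.

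The 17 other subunits of the family were listed, and 15 were measured. They include the chains that leukocytes and platelets use, and the highest mean signal among them was 8.41, that of Itga1. None passed in limma, with or without the block (0 and 0 of 15, where 4.67% and 1.15% of all genes passed). At an unadjusted p under 0.05 the count was 0 of 15, where 17.5% of all genes had one. Their differences ran from -0.16 to 0.22 with a median of 0.05. Itgb8, another partner of Itgav, read 3.28, 3.42 and 3.21 in shAtoh8, against 2.96, 3.17 and 3.12 in shControl, at the dim end of the array (log2 difference 0.22 ± 0.10 SE, limma adjusted p = 0.374). Itga9 gave 0.21 ± 0.10 (adjusted p = 0.427). Itgb3, named as the partner of Itgav in the vitronectin receptor and chosen for that after its values were seen, averaged 7.06 in shAtoh8 and 7.12 in shControl (limma adjusted p = 0.959).

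Among 26 measured collagen, fibronectin and RGD ligands 1 rose, Col4a5, a chain of basement membrane collagen IV, and 0 fell, where 0.517% of all genes were called higher and 0.638% lower. It read 9.31, 9.49 and 9.43 in shAtoh8, against 8.79, 8.85 and 8.57 in shControl, for a log2 difference of 0.67 ± 0.10 (SE; limma adjusted p = 0.0437, and 0.0304 with the block). Its second probe set rose as well, by 0.55 ± 0.08 (0.0431). The call of the main set was lost with any 1 array left out, with differences of 0.59 to 0.73. The most negative difference in the list was that of Ccn1, a matrix protein that integrins bind, named after its values were seen. It read 8.97, 9.09 and 9.23 in shAtoh8, against 9.48, 9.89 and 11.06 in shControl, without overlap, a log2 difference of -1.05 ± 0.36 (SE) that did not pass (limma adjusted p = 0.251, and 0.0782 with the block). The median of the list was -0.03.

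Among 14 laminin subunits and hemidesmosome proteins none passed without the block (0, with 2 at an unadjusted p under 0.05, where 17.5% of all genes had one). With the block 1 of 14 fell, where 2.75% of all genes did. This was Lamc1, the gamma chain of most laminins, which read 9.24, 9.43 and 9.80 in shAtoh8, against 9.85, 10.19 and 10.89 in shControl. The groups did not overlap, and replicate 3 was high in both. The log2 difference was -0.82 ± 0.27 (SE; limma adjusted p = 0.221, and 0.0292 with the block), and the second set gave -0.60 ± 0.32 (0.496 and 0.0804). The main set gave -0.53 without shControl replicate 3, and the call with the block was lost without both arrays of replicate 1 (0.110) or replicate 3 (0.131). The list had a median of -0.18, with 9 members lower and 5 higher.

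**Figure D4:**
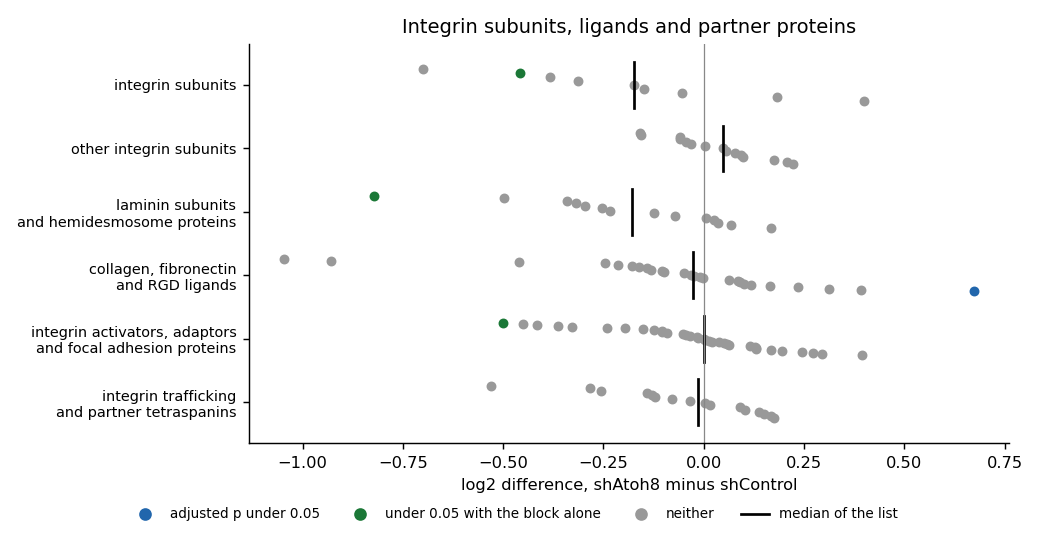
Log2 difference, shAtoh8 minus shControl (horizontal axis), of the 9 integrin subunits and of the measured members of 5 related lists. Each point is a gene on its main probe set and the black bar is the median of the list (-0.17, 0.05, -0.18, -0.03, 0.00 and -0.02 from top to bottom); Col4a5 is the point at 0.67.

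Inside the cell, 35 activators, adaptors and focal adhesion proteins had a median of 0.00. None passed without the block (0, with 6 of 35 at an unadjusted p under 0.05, near the 17.5% of all genes). With the block 1 of 35 fell, near the 2.75% of all genes, Tln2, a talin that binds the tails of beta chains (-0.50 ± 0.17 SE; limma adjusted p = 0.256, and 0.0490 with the block). Its other 2 probe sets gave -0.099 and 0.0023. The main set gave -0.31 without shControl replicate 3, and the call with the block was lost without both arrays of replicate 1 (0.176) or replicate 3 (0.233). The 16 trafficking proteins and partner tetraspanins had a median of -0.02, and none passed in limma on the main sets with or without the block (0 and 0, with 3 of 16 at an unadjusted p under 0.05, near the 17.5% of all genes). Cd47, the integrin-associated protein, read 12.12, 12.34 and 12.27 in shAtoh8, against 12.41, 12.58 and 12.59 in shControl (-0.28 ± 0.10 SE, adjusted p = 0.246). A dimmer probe set, chosen after the values were seen, read 10.74, 10.75 and 10.79 in shAtoh8, against 11.41, 11.54 and 11.52 in shControl, and fell by 0.73 ± 0.08 (adjusted p = 0.0220). Of its other 3 sets 2 gave -0.63 and -0.64 without passing, and the dimmest gave -0.08. Hax1, known to bind the tail of Itgb6, gave -0.26 ± 0.10 (adjusted p = 0.310) and -0.49 ± 0.11 (0.104) on its 2 sets.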

How the data were processed

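Expression was measured on 6 Affymetrix arrays. The authors deposited one log2 signal per probe set and array, made with RMA and affy, per the submitters' processing notes, which give no version. RMA quantile-normalises the arrays, which removes any change that most genes share. Of 45101 probe sets, 64 control sets were left out and 45037 tested; 34945 had 1 gene symbol in the platform annotation, 932 several and 9160 none. RefSeq (GRCm38.p6) changed 0 symbols.

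The groups were compared with lmFit and eBayes of limma 3.58.1 (R 4.3.3), two-sided, adjusted by Benjamini-Hochberg over all tested probe sets with a threshold of 0.05. The fit was tested on simulated data. The number of arrays limits the precision. No statement compares the signals of different probe sets as amounts of RNA. Deviations from the group means correlated between arrays of the same replicate number at 0.407, 0.187 and 0.433, and between different numbers at -0.351 to 0.0292. Centring on the group means ties these values, since positive ones at the same number lower those between different numbers. Arrays of the same number were treated as pairs in a second fit with this block, which is reported beside the first. Named genes were all 9 subunits, Atoh8, the 3 nearest profiles to the subunit with the smallest p, and in each related list up to 4 members that passed in either fit or, with none, the 2 with the smallest p. The members and lists were chosen with earlier results of these data known. Alternatives covered normalization, centring, brightness, the block, variance model, array weights, arrays left out, probe set choice and threshold.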

Additional observations from a re-analysis of the deposited data

How the results depend on the processing

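The count of 0 integrin subunits called stayed at 0 in 15 of 18 alternatives. It was 1 with the replicate block (Itga5) and 1 with the mean of probe sets (Itgb6, -0.83, limma adjusted p = 0.0305). It was also 1 (Itgb6, -0.96, 0.0280) without sets of the suffix _s_at, _x_at or _a_at. Their probes may match several transcripts, those of the same gene included. Itgb6 (main set _a_at) and Itga5 (main set _s_at) were then read on their second sets, and Itgb4 (_a_at) had no probe set. Itga5 gave -0.43 there (adjusted p = 0.589, without the block). The count was 0 to 0 with 1 array left out, where the count over all genes was 0 to 117. With so few genes called, a count of 0 subunits in these settings says little about its stability. Itga2 turned to 0.0015 without shAtoh8 replicate 2 (-0.66 to 0.0015 with 1 array left out) and 0.023 in the block fit without both arrays of replicate 2, Itga3 to -0.073 without shAtoh8 replicate 3 (-0.073 to 0.36), and Itgb4 to 0.14 without shAtoh8 replicate 1, 0.068 without shControl replicate 3 (-0.20 to 0.14) and 0.016 in the block fit without both arrays of replicate 3. Itga5, Itga6, Itgav, Itgb1, Itgb5 and Itgb6 kept their sign in all 18.

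Over all genes the count of 210 became 849 with the replicate block, 324 with brighter probe sets alone, 339 with array weights, 459 with the mean of probe sets, 691 at a threshold of 0.1, and 0 to 117 with 1 array left out. Block fits without both arrays of replicate 1, 2 or 3 gave 0, 966 and 0; these were added after seeing the data. In the related lists the count of 1 became 3 with the block, 2 with the mean of probe sets, 0 to 0 with 1 array left out, and 0, 6 and 0 in the block fits without replicate 1, 2 or 3. The cause of these changes in the counts was not tested. The calls of Col4a5 and of the second Itgb6 set were each lost in 8 alternatives, all with fewer arrays.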

Other observations

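The Itgav-Itgb6 receptor releases TGF-beta from its latent complex, and the latent ligands were read beside it. These genes were chosen after the values were seen. Tgfb3 read 6.20, 6.73 and 6.25 (log2 signal) in shAtoh8 replicates 1, 2 and 3, against 7.21, 6.98 and 7.78 in shControl, a log2 difference of -0.93 ± 0.23 (SE) that did not pass (limma adjusted p = 0.122, and 0.0891 with the replicate block). Tgfb1 read 9.95, 10.23 and 10.17 in shAtoh8, against 10.42, 10.50 and 10.80 in shControl (-0.46 ± 0.13; 0.161, and 0.0653 with the block), and its dim second probe set gave 0.05. The groups did not overlap on either main set. Ltbp1 and Ltbp3, which hold latent TGF-beta in the matrix, gave -0.00094 and 0.086 (adjusted p = 0.999 and 0.852).

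Lamb1, the laminin chain that joins Lamc1, was also named after its values were seen. It was lower in shAtoh8 on its 3 brighter probe sets, with log2 differences of -0.50, -0.60 and -0.47. The groups did not overlap on these, where 11.4% of all genes were lower without overlap on their main set. None of these 3 sets passed in limma (adjusted p = 0.144, 0.162 and 0.173, and 0.0544, 0.0609 and 0.0811 with the block). The dimmest set gave -0.014, with overlap.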
